A study of Mus musculus with 17 samples.

Results

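The comparison described here set 6 Dp16 mice against 6 wild-type (WT) mice, 12 of the 17 hippocampus libraries of the study, and was chosen by the genotype that the labels give each sample. Per the labels, WT mice were wild-type C57BL/6J and carried no altered allele, and Dp16 mice carried the genotype named Dp16. As background to that name, Dp16 is a duplication of the distal part of mouse chromosome 16 that is present in every cell and is not driven by a promoter or a Cre. The remaining 5 mice, Dp16_2xIFNRs, have the same duplication but, by their label, a normal dose of interferon receptor genes. They are not compared here, but they entered the choice of tested genes, the scaling, the sex term and the estimate of the spread between mice. Both groups held 3 females and 3 males aged 17.1 to 18.0 weeks, none had a treatment, and polyadenylated RNA of 1 hippocampus sample per mouse was sequenced. The labels do not give the background strain of the Dp16 mice or say whether any mice were littermates, so p-values measure the spread between these mice. A difference of strain between the groups was not tested. Outside the segment it cannot be told apart from an effect of the duplication.

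Dp16 mice are a model of Down syndrome. The duplicated segment holds genes whose human counterparts lie on chromosome 21, and a gene with an extra copy is generally transcribed in proportion to its copies unless its expression is regulated. The segment holds genes that act in neurons and glia, among them the amyloid precursor protein, the kinase Dyrk1a, the OLIG transcription factors and receptors for interferons, and a change of their dose can in turn alter genes elsewhere in the genome.

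Sequencing depth was even, with 30.4 to 32.9 M counts (M, mega) in the WT libraries and 30.4 to 33.1 M in those of Dp16. Expression is given as counts per M counts of the scaled library (CPM), and differences as edgeR log2 fold changes of Dp16 over WT. Their standard error (SE) is not an output of edgeR. It is the size of the log2 fold change divided by the square root of the F statistic of its edgeR test. The markers of the tissue were present: 12 of 12 markers of dentate granule cells, 10 of 10 of CA1 and 10 of 10 of CA3 pyramidal cells had enough counts to be tested. A few libraries stood apart. The summed level of 14 choroid plexus markers was 92.7 CPM in WT replicate 6 and 98.7 CPM in Dp16 replicate 6, and 2483 to 6782 CPM in the other 10 libraries. WT replicate 4 had 48.2 CPM of Tcf7l2 and 173 CPM of Prkcd, which mark thalamus, against 3.93 to 10.4 and 13.9 to 32.999 CPM in the other WT libraries. In bulk tissue, fewer cells of a type and less RNA per cell cannot be told apart.

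The duplicated segment was taken as chromosome 16 from 75540514 to 97962622 (GRCm38), from Lipi to Zbtb21, and holds 384 genes of the tables, of which 122 had enough counts to be tested and 100 a mean of at least 1 CPM over the 12 mice. Transcripts of the segment were higher in Dp16 as a body. A gene is called here when its edgeR p, adjusted by Benjamini-Hochberg over all 18983 tested genes, is under 0.05. Of all tested genes 102 were called (0.537%). By that rule 62 of the 122 segment genes were called, all of them higher, a share of 50.8% with 0 lower (0.0%), against 0.212% (40 of 18861) outside the segment, and in 61 of the 122 (50%) every Dp16 mouse was above every WT mouse. The median log2 fold change over the 100 genes with at least 1 CPM was 0.56 (interquartile range 0.46 to 0.65), or 1.48-fold, and 98 of them had a positive value. The called genes ranged from 0.42 for Hunk to 0.83 for Ncam2.

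The dosage was alike from mouse to mouse. The median ratio of the 100 genes to the WT mean was 0.985 to 1.023 in the 6 WT mice and 1.466 to 1.495 in the 6 Dp16 mice, so that the groups were far apart and each of them was narrow. The 95% interval of the fold change included 1.5-fold, the ratio of the gene copies, for 89 of the 100 genes. It lay below that ratio for 8 genes, Gm9843, Lca5l, Gm15966, Erg, Olig2, Prdm15, Olig1 and Hunk, and above it for 3, Ncam2, Hspa13 and Rbm11. The intervals were built from the derived SE, which is least certain for genes with little change, such as Lca5l and Gm15966. The spread between mice was no wider in Dp16: the median coefficient of variation was 11.7% in WT and 9.21% in Dp16, and it was higher in Dp16 for 39 of the 100 genes.

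Calls were more frequent among the more abundant segment genes. Of the 69 genes with at least 10 CPM, 56 were called, with a median log2 fold change of 0.58 and a median SE of 0.07. Of the 31 genes from 1 to 10 CPM, 6 were called, with a median of 0.48 and a median SE of 0.18, and of the 22 genes under 1 CPM, 0 were called by edgeR, DESeq2 or limma-voom, with 6 at an unadjusted edgeR p under 0.05. Protein-coding genes made up 60 of the 62 called genes, of 92 tested, and genes of other types 2 of 30.

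**Figure D1:**
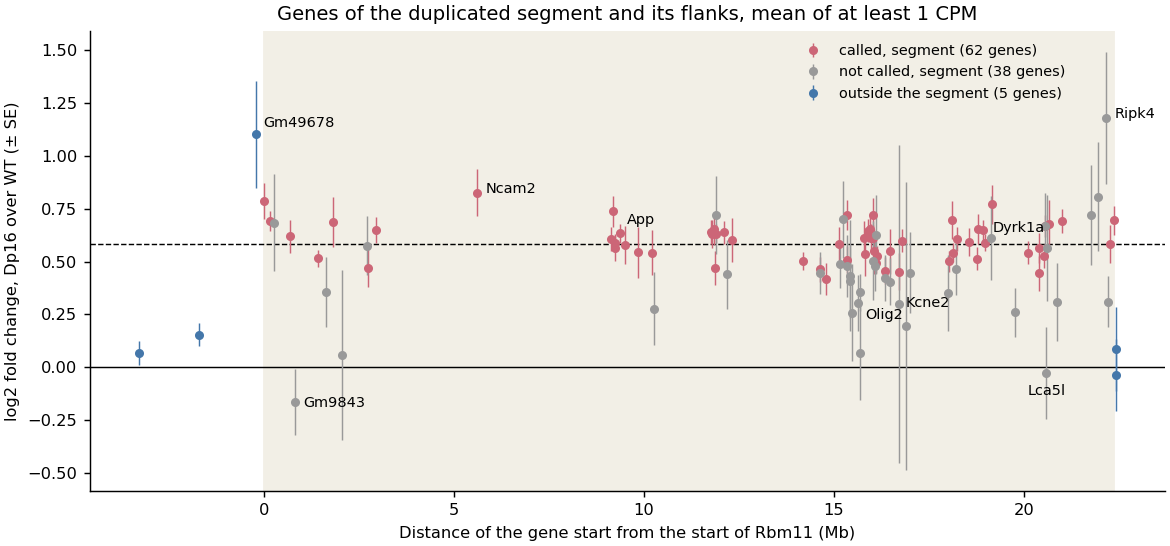
Log2 fold change of Dp16 over WT (y axis, with SE bars) for the segment genes with at least 1 CPM, by distance in Mb from the start of Rbm11, its first tested gene (x axis), with called genes, genes not called and 5 neighbours outside drawn apart and a dashed line at log2 of 1.5. The 62 called genes lie between 0.42 and 0.83 along the whole segment, and 4 of the 5 neighbours lie between -0.04 and 0.15.

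Genes just outside the segment were mostly near 0. Before Rbm11, the first tested gene of the segment, lie Robo2, a guidance receptor of axons 1181 kb away (log2 fold change 0.15, edgeR adjusted p = 0.324), and Robo1, 2547 kb away (0.07). Beyond its end, B230307C23Rik at 34.7 kb and A630089N07Rik at 38.7 kb had log2 fold changes of -0.04 and 0.09. One transcript before the start differed from these. Gm49678, 146 kb before Rbm11 and outside the segment as taken here, stood at 0.342 to 1.28 CPM in WT and at 1.36 to 1.96 CPM in Dp16, with no overlap, and its log2 fold change of 1.10 ± 0.25 missed the threshold (edgeR adjusted p = 0.0648) and passed it by DESeq2 and limma-voom, and without WT replicate 2 or WT replicate 6 (lowest edgeR adjusted p = 0.0100, without replicate 6). Over the 465 tested genes of chromosome 16 outside the segment, the median log2 fold change was 0.00 and 1 gene was called, Tbx1.

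From Rbm11 to Zbtb21, cut into 5 windows of equal length, the medians were 0.60, 0.83, 0.61, 0.49 and 0.59, over 12, 1, 18, 38 and 31 genes. The second window held only Ncam2. The fourth, which holds the receptor cluster and the OLIG genes, had the lowest median, with 20 of 38 genes called.

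The 4 receptor chains lie side by side in that window. They bind interferons and interleukin 10 at the cell surface and pass the signal to kinases of the JAK family. Ifnar1, a chain of the type I interferon receptor, lay at 39.1 to 48.3 CPM (median 39.5) in WT and at 61.6 to 68.6 CPM (median 64.2) in Dp16. Its partner Ifnar2 lay at 15.1 to 21.2 CPM (median 18.2) in WT and at 24.03 to 28.9 CPM (median 28.3) in Dp16. Ifngr2, which belongs to the receptor of interferon gamma, lay at 44.6 to 57.1 CPM (median 52.5) and at 71.8 to 94.1 CPM (median 82.6).

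None of these 3 receptors had a Dp16 mouse within the WT range, and all 3 were called. Il10rb, shared by the receptors of interleukin 10 and type III interferons, lay at 6.81 to 9.14 CPM (median 8.07) in WT and at 8.47 to 13.1 CPM (median 12.2) in Dp16. Dp16 replicate 6, at 8.47 CPM, fell among the WT mice, and leaving out Dp16 replicate 5 ended the call of Il10rb (edgeR adjusted p = 0.0518). The female log2 fold changes of Ifnar1, Ifnar2 and Ifngr2 were 0.55, 0.52 and 0.56 and the male ones 0.74, 0.71 and 0.75, and none of the 3 differed between the sexes in edgeR at an adjusted p under 0.05.

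Signalling genes of the segment include kinases, scaffolds of endocytosis and regulators of calcineurin. Of 11 tested, 6 were called, all higher, and of these Hunk alone had overlapping groups. Synj1, the lipid phosphatase synaptojanin 1 that uncoats synaptic vesicles after endocytosis, stood at 397 to 552 CPM (median 451) in WT and at 720.1 to 844 CPM (median 761) in Dp16 (log2 fold change 0.72 ± 0.07, edgeR adjusted p = 3.88e-06). Itsn1, the endocytic scaffold intersectin 1, stood at 162 to 189 CPM (median 183) in WT and at 249 to 273 CPM (median 258) in Dp16 (0.53 ± 0.05, edgeR adjusted p = 2.52e-06).

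Tiam1, an exchange factor of the small GTPase Rac, stood at 131 to 144 CPM (median 138) in WT and at 186 to 203 CPM (median 195) in Dp16 (0.50 ± 0.04, edgeR adjusted p = 9.27e-07). Dyrk1a, a kinase of splicing factors, tau and NFAT, stood at 80.5 to 92.5 CPM (median 83.7) in WT and at 121 to 134 CPM (median 126) in Dp16. Rcan1, an inhibitor of calcineurin, stood at 45.2 to 55.2 CPM (median 49.6) in WT and at 73.1 to 78.8 CPM (median 76.1) in Dp16. In all 5 genes every Dp16 mouse was above every WT mouse.

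Hunk, a kinase of the AMPK family, was the called gene with the smallest rise: 30.1 to 43.7 CPM (median 33.6) in WT and 39.0 to 51.3 CPM (median 48.3) in Dp16, with overlap (0.42 ± 0.08, edgeR adjusted p = 0.00884). Pcp4, a small calmodulin-binding protein, was not called. It stood at 88.7 to 226 CPM (median 102) in WT and at 113 to 175 CPM (median 155) in Dp16 (0.31 ± 0.18, edgeR adjusted p = 0.627). The highest WT value came from WT replicate 4, the library high in thalamus markers, and the other WT mice reached at most 131 CPM. Without that library Pcp4 was called (log2 fold change 0.55, edgeR adjusted p = 0.0475), and the part of thalamic RNA in the difference was not tested. Ripk4, a kinase that stood at 0.288 to 1.66 CPM in WT and 1.78 to 3.55 CPM in Dp16, had the highest log2 fold change of the segment genes with 1 CPM, 1.18 ± 0.31, and missed the threshold (edgeR adjusted p = 0.134).

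Of 13 tested genes of adhesion, the extracellular matrix and its proteases, 6 were called, all higher. App, the amyloid precursor protein (16, 84949685 to 85173766, minus strand), is a transmembrane protein whose cleavage yields amyloid beta, and it was the segment gene with the highest level per length: its mean RPKM was 215 in WT and 329 in Dp16. On the CPM scale App stood at 1710.2 to 1846 (median 1735) in WT and at 2529.6 to 2859 (median 2730.2) in Dp16, with no overlap (log2 fold change 0.63 ± 0.05, edgeR adjusted p = 1.37e-07).

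Ncam2, a neural cell adhesion molecule, had the largest rise among the called genes of the segment. It stood at 59.7 to 108 CPM (median 79.2) in WT and at 133 to 151 CPM (median 148) in Dp16 (0.83 ± 0.11, edgeR adjusted p = 0.000233), or 1.77-fold with a 95% interval of 1.51 to 2.08. Dscam, an adhesion molecule of the immunoglobulin superfamily that guides dendrites, stood at 58.2 to 74.9 CPM (median 65.1) in WT and at 99.0 to 118 CPM (median 105) in Dp16 (0.69 ± 0.06, edgeR adjusted p = 8.81e-07). Jam2, a junctional adhesion molecule, stood at 43.8 to 51.5 CPM (median 47.0) in WT and at 64.1 to 87.7 CPM (median 81.2) in Dp16 (0.74 ± 0.07, edgeR adjusted p = 5.69e-06). In these 3 genes the groups did not overlap.

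The remaining pair of called genes in this group was less firm. Adamts1, a secreted protease of proteoglycans, stood at 22.2 to 36.7 CPM (median 29.3) in WT and at 32.8 to 50.1 CPM (median 43.6) in Dp16 (0.54 ± 0.11, edgeR adjusted p = 0.0181), and its call was lost without any one of WT replicates 1 and 3 and Dp16 replicates 3 and 5 (highest edgeR adjusted p = 0.0644, without WT replicate 1). Cyyr1, a membrane protein, was called at 0.54 ± 0.12 (edgeR adjusted p = 0.0492), and the call was lost without any of 9 libraries, all but WT replicates 2 and 5 and Dp16 replicate 6 (highest edgeR adjusted p = 0.140, without Dp16 replicate 5).

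Cxadr, a tight junction protein and viral receptor, missed the threshold at 0.58 ± 0.14 (edgeR adjusted p = 0.0883) and passed it narrowly without WT replicate 4. Eva1c, a receptor of guidance cues, had 0.70 ± 0.18 (edgeR adjusted p = 0.123) and passed without WT replicate 4 (edgeR adjusted p = 0.00848), its highest WT library. Bace2, a secretase related to Bace1, had 0.72 ± 0.24 (edgeR adjusted p = 0.302), and Adamts5, another protease of the matrix, 0.28 ± 0.17 (edgeR adjusted p = 0.644).

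Among channels and transporters, a pair of neuronal receptor and channel subunits was called. Kcnj6, the GIRK2 subunit of potassium channels opened by G proteins in neurons, stood at 26.2 to 35.8 CPM (median 29.2) in WT and at 46.3 to 57.4 CPM (median 49.8) in Dp16 (0.77 ± 0.09, edgeR adjusted p = 7.63e-05). Grik1, a kainate receptor subunit, stood at 11.7 to 19.7 CPM (median 13.7) in WT and at 20.6 to 24.7 CPM (median 21.9) in Dp16 (0.60 ± 0.10, edgeR adjusted p = 0.00456). The groups did not overlap in either gene, and they were the 2 called genes of the 5 tested. Slc5a3, the myo-inositol transporter, had 0.41 ± 0.11 (edgeR adjusted p = 0.156).

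Kcne2 and Clic6, a channel subunit and a chloride channel protein made in the choroid plexus, were not called. Kcne2 stood at 0.128 to 38.3 CPM (median 28.3) in WT and at 0.540 to 56.2 CPM (median 34.2) in Dp16 (0.30 ± 0.75, edgeR adjusted p = 0.928). Clic6 stood at 2.37 to 119.8 CPM (median 84.6) and at 4.70 to 168 CPM (median 98.7) (0.20 ± 0.68, edgeR adjusted p = 0.951). The lowest value in each group came from the library with hardly any choroid plexus RNA. Without WT replicate 6 alone, the log2 fold change of Clic6 was -0.03. Without both of these libraries the medians were 30.6 and 37.9 CPM for Kcne2 and 85.1 and 111.5 CPM for Clic6, and with the choroid plexus level as a covariate both were called.

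Of 12 tested transcription factors, 5 were called, all higher and without overlap. Ets2, an ETS family factor, stood at 69.0 to 86.0 CPM (median 77.7) in WT and at 103 to 122 CPM (median 116) in Dp16 (0.54 ± 0.06, edgeR adjusted p = 7.29e-06). Nrip1, a corepressor of nuclear receptors, stood at 42.7 to 57.5 CPM (median 51.3) and at 70.5 to 86.7 CPM (median 79.3) (0.62 ± 0.08, edgeR adjusted p = 9.36e-05). Gabpa, an ETS factor that drives genes of the respiratory chain, stood at 36.5 to 40.3 CPM (median 39.2) and at 54.1 to 62.0 CPM (median 58.4) (0.59 ± 0.04, edgeR adjusted p = 1.37e-07).

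Bach1, a heme-regulated repressor of oxidative stress genes, was among the tightest of the segment, at 15.2 to 17.2 CPM (median 16.6) in WT and at 24.9 to 26.1 CPM (median 25.4) in Dp16 (0.64 ± 0.05, edgeR adjusted p = 9.27e-07). Zbtb21, a zinc finger repressor at the distal end, stood at 18.4 to 20.6 CPM (median 19.0) and at 28.8 to 34.4 CPM (median 30.4) (0.70 ± 0.07, edgeR adjusted p = 4.29e-06).

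The OLIG genes, which direct oligodendrocyte fate, were not called, although Olig1 was the most abundant of the factors. Olig1 stood at 115 to 149.6 CPM (median 129.6) in WT and at 144 to 194 CPM (median 169) in Dp16 (0.35 ± 0.09, edgeR adjusted p = 0.0863), and it was called by DESeq2, with no filter and on the 12 libraries alone. Olig2 stood at 27.9 to 42.0 CPM (median 36.4) and at 33.8 to 49.0 CPM (median 45.7) (0.30 ± 0.13, edgeR adjusted p = 0.481). The ranges overlapped in both genes, and the 95% interval of each lay below 1.5-fold. Markers of oligodendrocytes (12 of 12 tested) had a median log2 fold change of -0.02 and those of their precursors (10 of 10) of 0.02, and edgeR, DESeq2 and limma-voom called 0 of either list, with 0 and 2 at an unadjusted edgeR p under 0.05. The 95% interval also lay below 1.5-fold for Prdm15, a zinc finger factor (0.31 ± 0.12, edgeR adjusted p = 0.430). So did that of Erg, an ETS factor of endothelial cells (0.26 ± 0.12, edgeR adjusted p = 0.493). Endothelial markers had a median of 0.00. Of these, 0 of 12 were called by any of these tests or had an unadjusted p under 0.05.

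Gabpa starts near Atp5j, a subunit of the ATP synthase that is read in the opposite direction, and both genes were called, with log2 fold changes of 0.59 and 0.56. The bodies of the genes overlap by 700 bases, so that, without a stated strand setting in the counting, a part of their counts may be shared. The RefSeq promoter window of Gabpa (GRCm38.p6, chr16:84834874-84835173, plus strand, 250 bases before and 50 after the start) is shown because it overlaps a window of Atp5j (chr16:84834927-84835226, minus strand). Capitals mark the match of the ETS motif CCGGAAG, here on the minus strand. A second window of Atp5j (chr16:84835576-84835875, minus strand) holds 0 matches of that motif and 2 of GGGCGG. Which start of Atp5j was used was not tested.
Gabpa: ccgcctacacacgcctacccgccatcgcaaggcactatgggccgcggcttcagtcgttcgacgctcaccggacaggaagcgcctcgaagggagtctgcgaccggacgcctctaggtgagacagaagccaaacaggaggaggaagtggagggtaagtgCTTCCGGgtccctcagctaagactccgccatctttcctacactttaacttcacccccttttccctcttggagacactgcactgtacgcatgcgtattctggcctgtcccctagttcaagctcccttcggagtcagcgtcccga
The motif was searched on both strands, and stood in 8.86% of all 32851 promoter windows of this length and in 20.6% of the 102 windows of 78 segment genes with at least 1 CPM. For GGGCGG, the core of Sp factor sites, the shares were 35.7% and 59.8%, for TATAAA 13.6% and 7.84%, for CCAAT 37.4% and 30.4%, and for the interferon-stimulated response element 3.44% and 0.0%. A match is a description of the letters and not a site of binding. Matches of different motifs did not overlap in the windows printed here, and the share over all windows includes genes that are not expressed in these samples.

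A further 2 of the 7 pairs of segment genes that start within 1000 bases of each other in opposite directions had both members called. They were Gart and Son, 554 bases apart (log2 fold changes 0.61 and 0.55), and Cryzl1 and Itsn1, 306 bases apart (0.50 and 0.53).

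Chromatin and RNA genes numbered 14 tested, of which 8 were called and 11 had no overlap. Son, a splicing cofactor, stood at 256 to 319.9 CPM (median 279) in WT and at 366 to 515 CPM (median 407) in Dp16 (0.55 ± 0.11, edgeR adjusted p = 0.0167). Its call was lost without WT replicate 3 or WT replicate 5 (edgeR adjusted p up to 0.0586), and Dp16 replicate 3 at 515 CPM lay far above the other Dp16 mice. Brwd1, a chromatin reader, stood at 97.4 to 124 CPM (median 101) in WT and at 145 to 172 CPM (median 157) in Dp16 (0.57 ± 0.07, edgeR adjusted p = 0.000118). Hmgn1, a nucleosome-binding protein, stood at 58.5 to 71.6 CPM (median 66.6) and at 85.9 to 102 CPM (median 95.2) (0.52 ± 0.06, edgeR adjusted p = 1.73e-05).

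Rbm11, a splicing factor of brain and testis, was 1 of the 3 genes above 1.5-fold, at 6.86 to 8.66 CPM (median 7.502) in WT and at 10.8 to 14.5 CPM (median 13.2) in Dp16 (0.79 ± 0.08, edgeR adjusted p = 1.46e-05). Morc3, a nuclear ATPase, N6amt1, a methyltransferase, and Mis18a, which loads the centromeric histone, were called at 0.61, 0.64 and 0.58. Btg3, an antiproliferative regulator of mRNA decay, was called at 0.47 ± 0.09 (edgeR adjusted p = 0.0184), and the call was lost without any one of WT replicates 3 and 5 and Dp16 replicates 1, 4 and 5 (highest edgeR adjusted p = 0.0676, without WT replicate 3).

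The 6 that were not called had log2 fold changes of the same sign. Scaf4, a regulator of transcription termination, had 0.45 ± 0.10 (edgeR adjusted p = 0.0533) and was called without WT replicate 4 (edgeR adjusted p = 0.0228) or Dp16 replicate 5. Urb1, of ribosome assembly, had 0.49 ± 0.11 (edgeR adjusted p = 0.0659), and Donson, a replication factor, 0.48 ± 0.12 (edgeR adjusted p = 0.0997; 0.0306 without WT replicate 4). Paxbp1 and Setd4 had 0.41 ± 0.17 and 0.35 ± 0.18, with edgeR adjusted p = 0.477 and 0.554.

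All 13 tested genes of protein folding, degradation and membrane traffic were called, and none had an overlap between the groups. Ttc3, a ubiquitin ligase, stood at 795 to 1085 CPM (median 913) in WT and at 1417 to 1563 CPM (median 1454) in Dp16 (0.65 ± 0.07, edgeR adjusted p = 1.56e-05). Cct8, a subunit of the cytosolic chaperonin, stood at 164 to 186 CPM (median 178) and at 257 to 289 CPM (median 277) (0.63 ± 0.05, edgeR adjusted p = 1.37e-07). Tmem50b, a protein of the endoplasmic reticulum, stood at 84.5 to 101 CPM (median 93.2) and at 131 to 160.1 CPM (median 139.7) (0.61 ± 0.06, edgeR adjusted p = 1.05e-05).

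Hspa13, an Hsp70 family chaperone, had the smallest adjusted p of the segment. It stood at 50.7 to 58.2 CPM (median 57.1) in WT and at 84.4 to 95.6 CPM (median 90.2) in Dp16 (0.69 ± 0.05, edgeR adjusted p = 8.9e-08). The smallest rise of the group was that of Psmg1, an assembly chaperone of the proteasome, at 6.62 to 9.33 CPM in WT and 9.85 to 12.003 CPM in Dp16 (0.44 ± 0.08, edgeR adjusted p = 0.00874). The deubiquitinases Usp25 and Usp16 had log2 fold changes of 0.51 and 0.47, and the ribosome quality control ligase Ltn1 0.63. Wrb, which inserts tail-anchored proteins, had 0.67, the traffic proteins Dop1b and Vps26c had 0.54 and 0.65, and Dnajc28 and Rwdd2b 0.72 and 0.65.

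All 8 tested metabolic enzymes were called too, with no overlap in any. Sod1, the cytosolic superoxide dismutase, stood at 116 to 139 CPM (median 128) in WT and at 160.0 to 185 CPM (median 180.5) in Dp16 (0.46 ± 0.06, edgeR adjusted p = 0.000128). It was second in level per length, with a mean RPKM of 201 in WT and 274 in Dp16. B3galt5, a galactosyltransferase, stood at 52.0 to 82.1 CPM (median 60.9) and at 88.7 to 125 CPM (median 102) (0.68 ± 0.11, edgeR adjusted p = 0.00305). Cryzl1, a quinone oxidoreductase-like protein, stood at 51.9 to 60.7 CPM (median 54.0) and at 72.4 to 82.7 CPM (median 78.1) (0.50 ± 0.05, edgeR adjusted p = 5.69e-06).

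Gart, an enzyme of purine synthesis, was narrow within both groups, at 32.0 to 33.5 CPM (median 32.3) in WT and at 46.6 to 52.7 CPM (median 49.7) in Dp16. The carbonyl reductases Cbr1 and Cbr3 had log2 fold changes of 0.50 and 0.70, the biotin ligase Hlcs 0.59, and Pigp, of GPI anchor synthesis, 0.51.

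The 4 tested genes of mitochondria were called. Atp5j stood at 122 to 144 CPM (median 136) in WT and at 182 to 208 CPM (median 200.03) in Dp16 (0.56 ± 0.06, edgeR adjusted p = 1.47e-05). Atp5o, the stalk subunit of the same enzyme, stood at 129.7 to 150.3 CPM (median 137) and at 161 to 204 CPM (median 194) (0.46 ± 0.06, edgeR adjusted p = 0.00049). The ribosomal proteins Mrpl39 and Mrps6 of the organelle had 0.61 and 0.55, and Mrps6 alone of the 4 had overlapping groups. For comparison, 57 nuclear genes of oxidative phosphorylation outside the segment had a median of -0.07, with 7 positive, 0 called by edgeR, DESeq2 or limma-voom and 9 at an unadjusted edgeR p under 0.05.

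Mx1 and Mx2, genes of antiviral GTPases induced by interferons, lie near the distal end, and the gene annotation types both as polymorphic pseudogenes. They were not called by edgeR, DESeq2 or limma-voom, though both had an unadjusted edgeR p under 0.05. Mx2 stood at 0.463 to 1.03 CPM (median 0.694) in WT and at 0.857 to 2.42 CPM (median 1.124) in Dp16 (0.81 ± 0.26, edgeR adjusted p = 0.278), with 3 of the 6 Dp16 mice above the WT range. Mx1, under 1 CPM, had 1.53 ± 0.52 (edgeR adjusted p = 0.315).

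Ratios per mouse, taken as the median over the genes of a role, separated the groups in 8 of 10 roles. The lowest Dp16 mouse was at 1.43-fold for the receptors, 1.48 for signalling, 1.503 for adhesion, 1.41 for transcription factors, 1.38 for chromatin and RNA, 1.49 for protein quality, 1.40 for metabolism and 1.38 for mitochondria. The highest WT mouse over these 8 roles was at 1.22, for adhesion. Channels overlapped, with 0.711 to 1.37 in WT and 1.22 to 1.77 in Dp16. The interferon-induced role, which holds 1 gene with at least 1 CPM, overlapped as well, with 0.683 to 1.42 in WT and 1.19 to 3.22 in Dp16, and is left out of the plot of roles.

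**Figure D2:**
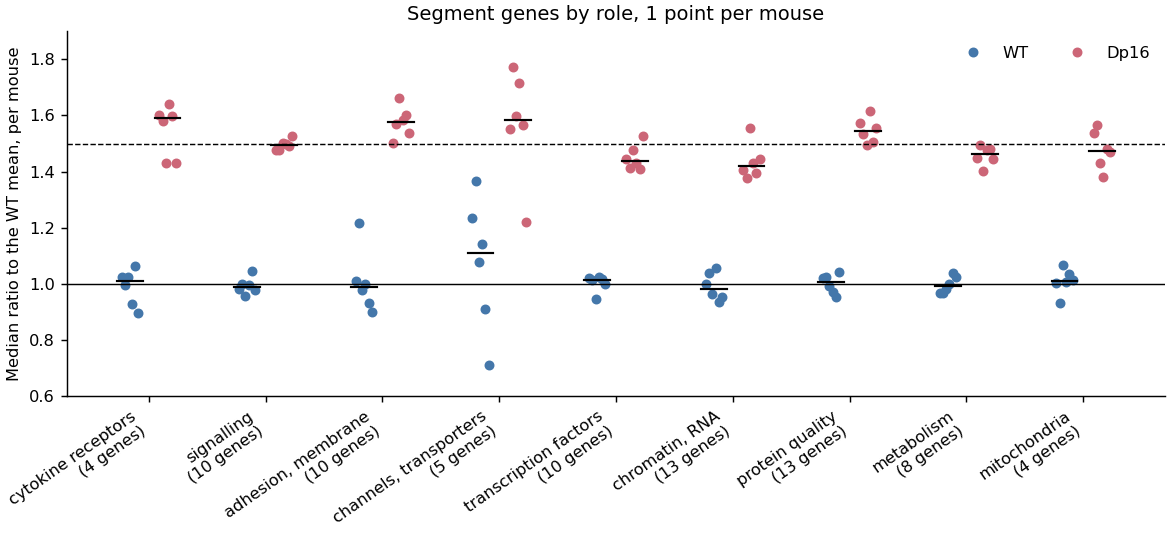
Median ratio to the WT mean (y axis, fold) over the segment genes of each of 9 roles (x axis), 1 point per WT or Dp16 mouse, with bars at the group medians and lines at 1 and 1.5. In each of these 9 roles but the channels all 6 Dp16 mice lie above all 6 WT mice.

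Outside the segment few genes were called by edgeR, and genes that were not called may still differ. Of 18861 tested, 25 were called higher (0.133%) and 15 lower (0.0795%), while the median log2 fold change of all of them was -0.01 (interquartile range -0.10 to 0.08). The called genes lay on 17 chromosomes, and 34 of the 40 have a full name, 21 higher and 13 lower. In 31 of the 40 the groups did not overlap, against 0.673% of all genes outside, and all 40 had the same sign in females and males. The calls were made on the same mice, so both counts describe the called genes and are no separate support for them. At an unadjusted edgeR p under 0.05 stood 1724 genes outside (9.14%). The changes were mostly small: 20 of the 40 had a log2 fold change under 0.5 in size and 7 over 1.

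Among the genes that fell, Cbs, cystathionine beta-synthase, which condenses homocysteine with serine in the first step of transsulfuration, had the smallest adjusted p. It stood at 26.0 to 27.8 CPM (median 27.1) in WT and at 17.005 to 19.1 CPM (median 17.9) in Dp16, with both ranges narrow and far apart (-0.59 ± 0.06, edgeR adjusted p = 1.47e-05; -0.54 in females and -0.64 in males). Its level in Dp16 was 0.664 of that in WT (95% interval 0.605 to 0.729). The human gene lies on chromosome 21, but the mouse gene (ENSMUSG00000024039.15) lies on chromosome 17, 31608894 to 31637238, minus strand, outside the duplication. The other 12 tested orthologs of that block of chromosome 17 were not called, with a median of -0.09 over all 13 (-0.05 without WT replicate 5), nor was any of the 29 tested on chromosome 10 by edgeR, DESeq2 or limma-voom, where the median was 0.04 and 4 had an unadjusted p under 0.05. Of 19 genes of homocysteine and one-carbon metabolism Cbs was the 1 called, with a list median of -0.01.

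The RefSeq promoter window of Cbs (GRCm38.p6, chr17:31637156-31637455, minus strand) is shown because this gene outside the duplication fell in all 6 mice. Capitals mark 2 matches of GGGCGG and 2 of CCAAT, searched on both strands.
Cbs: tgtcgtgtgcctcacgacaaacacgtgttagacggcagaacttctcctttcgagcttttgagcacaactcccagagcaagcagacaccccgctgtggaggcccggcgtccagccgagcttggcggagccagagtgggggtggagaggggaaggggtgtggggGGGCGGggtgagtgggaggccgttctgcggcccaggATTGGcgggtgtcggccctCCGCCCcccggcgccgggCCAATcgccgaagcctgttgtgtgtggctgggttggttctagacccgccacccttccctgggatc

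Tbx1, a T-box factor of development, and Rec8, a meiotic cohesin, had the largest falls. Tbx1 (16, 18580979 to 18590671) stood at 0.618 to 1.80 CPM (median 1.57) in WT and at 0.292 to 0.719 CPM (median 0.483) in Dp16 (-1.47 ± 0.28, edgeR adjusted p = 0.0128), with overlap. It was the called gene of chromosome 16 outside the segment, and without the libraries low in choroid plexus its call was lost (edgeR adjusted p = 0.0571). Rec8 stood at 2.32 to 4.47 CPM (median 3.25) in WT and at 0.808 to 1.73 CPM (median 1.26) in Dp16, with no overlap (-1.42 ± 0.25, edgeR adjusted p = 0.00512).

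Tnc, the matrix glycoprotein tenascin C of astrocytes and progenitor niches, stood at 4.93 to 7.23 CPM (median 6.14) in WT and at 2.94 to 4.77 CPM (median 3.79) in Dp16, with no overlap (-0.69 ± 0.12, edgeR adjusted p = 0.00517). Rfx5, a factor that drives MHC class II promoters, stood at 17.4 to 22.7 CPM (median 18.6) and at 11.8 to 15.8 CPM (median 13.4) (-0.50 ± 0.09, edgeR adjusted p = 0.00480). Pik3r3, which regulates the lipid kinase PI3K, stood at 48.2 to 61.2 CPM (median 53.4) and at 40.9 to 45.7 CPM (median 43.7) (-0.31 ± 0.06, edgeR adjusted p = 0.0104). The groups were apart in Rfx5 and Pik3r3 too.

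Mfge8, a secreted protein of astrocytes that tags dying cells for uptake, stood at 131 to 177 CPM (median 159) in WT and at 102 to 139 CPM (median 125) in Dp16 (-0.38 ± 0.07, edgeR adjusted p = 0.0117), with 3 of the 6 Dp16 mice below the WT range. Fgfr3, a receptor of fibroblast growth factors on astrocytes, stood at 99.9 to 119 CPM (median 114) and at 86.9 to 98.1 CPM (median 94.97) (-0.26 ± 0.05, edgeR adjusted p = 0.0329). They were the 2 called genes of 15 astrocyte markers, whose median was 0.00 with 8 positive. Aldh1l1, Aqp4 and Slc1a2, which define astrocytes, had log2 fold changes of -0.01, 0.01 and 0.11 (edgeR adjusted p = 0.970, 0.987 and 0.719), and the summed level of the list was 5733 to 7400 CPM in WT and 6331 to 7692 CPM in Dp16. The part of astrocyte content in both falls was not tested.

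Grin2c, an NMDA receptor subunit, stood at 47.3 to 67.5 CPM (median 53.6) in WT and at 40.5 to 44.9 CPM (median 42.0) in Dp16, with no overlap (-0.40 ± 0.08, edgeR adjusted p = 0.0307). It was the 1 called gene of 22 glutamate receptor genes, whose median was 0.03. Dyrk1b, the closest paralog of the duplicated Dyrk1a, stood at 16.7 to 20.6 CPM (median 17.4) in WT and at 13.7 to 15.1 CPM (median 14.3) in Dp16 (-0.32 ± 0.07, edgeR adjusted p = 0.0364). The 7 tested genes of that kinase family outside the segment had a median of 0.01. Of the remaining falls, Smarcd3, a subunit of the BAF chromatin remodeller, had -0.26 ± 0.05 (edgeR adjusted p = 0.0215), Pnrc1, a nuclear receptor coactivator, -0.30 ± 0.07 (edgeR adjusted p = 0.0448), and Tspan17, a tetraspanin, -0.26 ± 0.05 (edgeR adjusted p = 0.0107).

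**Figure D3:**
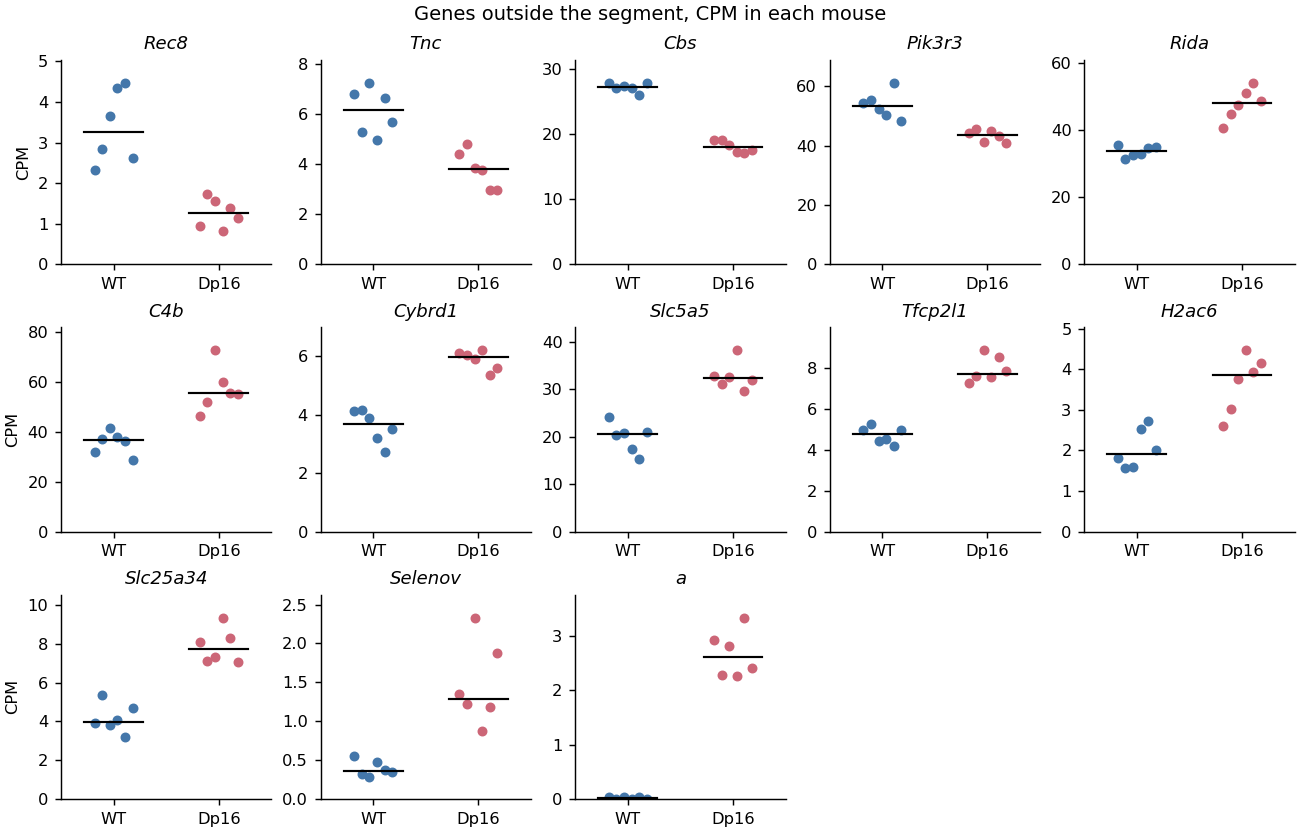
CPM per mouse (y axis, linear, from 0) of 13 genes called outside the segment, 1 point per mouse and a bar at each group's median. Cbs, Rec8 and Tnc have all Dp16 mice below all WT mice, and Slc5a5, Tfcp2l1 and C4b all above.

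Among the genes that rose, a, the gene of agouti signalling protein, an antagonist of melanocortin receptors best known for coat colour, stood apart by its size. It had 3 counts in the 6 WT libraries together, at most 1 in any, and 73 to 107 counts in each of the 6 Dp16 libraries, 512 in all. Scaled for depth, the ratio was 172 (95% Clopper-Pearson interval 58.5 to 836, which covers counting error only), and the gene had the edgeR adjusted p = 1.75e-10. The level in Dp16 stayed low, at 2.27 to 3.34 CPM (median 2.62). The gene (ENSMUSG00000027596.10) spans 2, 154791402 to 155051012, plus strand. Of the 30 genes with at least 1 CPM within 1 Mb, 0 were called by edgeR and 1 by DESeq2, with 4 at an unadjusted edgeR p under 0.05, and their log2 fold changes ran from -0.35 for Necab3 to 0.16 for Pxmp4, with a median of -0.02. The 8 tested melanocortin pathway genes had a median of 0.24 (0.13 without Dp16 replicate 4), and a was the 1 called. The genotype of the mice at this locus was not tested.

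The RefSeq promoter window of a (GRCm38.p6, chr2:155013320-155013619, plus strand) is shown because this transcript was present in every Dp16 mouse and nearly absent in WT. The window lies within the span of the gene and not at its first base, and which start was used in Dp16 was not tested. Capitals mark 1 match of CCAAT, searched on both strands.
a: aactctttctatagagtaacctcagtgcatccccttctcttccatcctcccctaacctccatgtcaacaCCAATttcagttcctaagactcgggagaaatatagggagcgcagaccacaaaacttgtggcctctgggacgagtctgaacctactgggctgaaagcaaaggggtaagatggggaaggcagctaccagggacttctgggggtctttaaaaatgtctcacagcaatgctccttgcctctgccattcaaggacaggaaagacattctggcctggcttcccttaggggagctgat

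Selenov, a selenoprotein known from testis, stood at 0.282 to 0.556 CPM (median 0.362) in WT and at 0.870 to 2.33 CPM (median 1.29) in Dp16, with no overlap (1.88 ± 0.27, edgeR adjusted p = 0.000568). It lies on chromosome 7, 105 kb from Dyrk1b, and the 35 genes with at least 1 CPM within 0.5 Mb had a median of -0.04 with Dyrk1b the 1 called. Slc25a34, a carrier of the inner mitochondrial membrane, stood at 3.17 to 5.38 CPM (median 3.99) in WT and at 7.05 to 9.35 CPM (median 7.71) in Dp16 (0.92 ± 0.12, edgeR adjusted p = 0.000127). Tfcp2l1, a transcription factor of epithelia and pluripotent cells, stood at 4.19 to 5.25 CPM (median 4.75) and at 7.25 to 8.88 CPM (median 7.72) (0.75 ± 0.10, edgeR adjusted p = 0.00014). In Slc25a34 and Tfcp2l1 the lowest Dp16 mouse was also above the highest WT mouse.

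Slc5a5, the sodium and iodide symporter known from the thyroid, stood at 15.4 to 24.2 CPM (median 20.6) in WT and at 29.6 to 38.3 CPM (median 32.4) in Dp16 (0.73 ± 0.09, edgeR adjusted p = 8.95e-05). Cybrd1, a ferric reductase, stood at 2.73 to 4.17 CPM (median 3.70) and at 5.38 to 6.21 CPM (median 5.96) (0.71 ± 0.11, edgeR adjusted p = 0.000987). They were the 2 called genes of 12 of iron and iodide transport, whose median was 0.00, and both had groups apart.

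C4b, a complement component that tags synapses and cells for uptake, stood at 28.9 to 41.8 CPM (median 36.7) in WT and at 46.5 to 72.9 CPM (median 55.5) in Dp16, with no overlap (0.68 ± 0.10, edgeR adjusted p = 0.000926). It has a near-identical neighbour, C4a, whose counts stood at 0.715 to 2.56 CPM and 0.344 to 1.72 CPM (-0.53 ± 0.37, edgeR adjusted p = 0.683), and how reads of the pair were split is not given in the sources used here. Of 19 complement genes C4b was the 1 called, with 15 positive and a median of 0.05. It also was the 1 called of 23 genes of reactive astrocytes, whose median was 0.16 (0.09 without WT replicate 1). Gfap, the filament protein of that list, stood at 302 to 386 CPM (median 356) in WT and at 391 to 437 CPM (median 419.9) in Dp16 with no overlap, and did not pass (0.24 ± 0.06, edgeR adjusted p = 0.123), although DESeq2 called it.

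H2ac6, a replication-type histone, stood at 1.57 to 2.73 CPM (median 1.92) in WT and at 2.60 to 4.47 CPM (median 3.85) in Dp16 (0.84 ± 0.12, edgeR adjusted p = 0.000693), with 5 of 6 Dp16 mice above the WT range. Histone genes are alike in sequence and largely without poly-A tails, so this value is less certain. Rida, a deaminase of reactive intermediates, stood at 31.4 to 35.7 CPM (median 33.8) and at 40.6 to 54.2 CPM (median 48.2) (0.50 ± 0.08, edgeR adjusted p = 0.00213). Ddo, the D-aspartate oxidase, stood at 8.44 to 12.1 CPM (median 10.5) and at 12.2 to 15.1 CPM (median 14.6) (0.46 ± 0.08, edgeR adjusted p = 0.00651). Rida and Ddo had groups apart.

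Lyz2, the lysozyme of macrophages, stood at 8.63 to 10.04 CPM (median 9.21) in WT and at 9.81 to 17.4 CPM (median 14.2) in Dp16 (0.60 ± 0.12, edgeR adjusted p = 0.0230), with overlap. It was the 1 called of 10 border macrophage markers, whose median was 0.04, and whose summed level was 19.4 to 23.7 CPM in WT and 20.7 to 33.6 CPM in Dp16. Mrc1 and Cybb had log2 fold changes of 0.25 and 0.48 (edgeR adjusted p = 0.633 and 0.462). Of the 10 markers 6 were positive, and the lowest log2 fold change was -0.21. By limma-voom 0 of them were called, thus not Lyz2. Of 15 microglia markers edgeR, DESeq2 and limma-voom called 0, with 2 at an unadjusted edgeR p under 0.05, and 5 were positive, with a median of -0.04. The part of macrophage content in the rise of Lyz2 was not tested. Lcp1, the actin bundler of leukocytes, was called higher too (0.32 ± 0.06, edgeR adjusted p = 0.0224).

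Dlx6os1, a long noncoding RNA of interneurons, stood at 14.7 to 24.2 CPM (median 19.2) in WT and at 25.3 to 30.1 CPM (median 26.9) in Dp16, with no overlap (0.50 ± 0.10, edgeR adjusted p = 0.0181). It is antisense to Dlx6, which had 0.02 ± 0.13 (edgeR adjusted p = 0.967), and it was the 1 called of 19 interneuron markers, whose median was 0.06 and whose summed level was 1312 to 1528 CPM in WT and 1386 to 1518 CPM in Dp16. Luzp2, a leucine zipper protein, stood at 186 to 193 CPM (median 189) and at 203 to 262 CPM (median 235) (0.31 ± 0.06, edgeR adjusted p = 0.00792). Without the libraries low in choroid plexus the call of Luzp2 was lost (edgeR adjusted p = 0.137). Wnt5a, a Wnt ligand, rose by 0.35 ± 0.07 (edgeR adjusted p = 0.0294).

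The smallest rises were of genes with tight groups. Hexa, a subunit of lysosomal hexosaminidase, stood at 46.8 to 53.2 CPM (median 50.1) in WT and at 55.6 to 58.8 CPM (median 57.5) in Dp16, with no overlap (0.20 ± 0.04, edgeR adjusted p = 0.0210). Slc25a22, the mitochondrial glutamate carrier, had 0.26 ± 0.06, Ubxn2b, a cofactor of p97, 0.28 ± 0.06, Sec24d, of vesicle coats of the endoplasmic reticulum, 0.28 ± 0.05, and Mctp1, a calcium sensor, 0.29 ± 0.06 (edgeR adjusted p = 0.0366, 0.0334, 0.0160 and 0.0268).

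Of the 34 named genes, 13 were called in every one of 27 other settings or sets of libraries: C4b, Cbs, Cybrd1, H2ac6, Pik3r3, Rec8, Rida, Selenov, Slc25a34, Slc5a5, Tfcp2l1, Tnc and a. The calls of Tbx1, Luzp2, Rfx5, Mfge8, Ddo and Tspan17 held without each single library, and each was lost in some other setting. Leaving out 1 library ended the call of 15 of the 34, of which 14 are described here. Those of Sec24d (without WT replicate 5 or Dp16 replicates 4 or 6) and Dlx6os1 (without WT replicate 3 or Dp16 replicates 2 or 4) depended on 3 libraries each, with the highest edgeR adjusted p = 0.0527 and 0.0644. Those of Hexa, Lcp1 and Mctp1 depended on 6 libraries each (highest edgeR adjusted p = 0.0738, 0.0771 and 0.0903). For Hexa these were WT replicates 3 and 5 and Dp16 replicates 1, 3, 4 and 5, for Lcp1 WT replicates 1, 3 and 5 and Dp16 replicates 2, 4 and 5, and for Mctp1 WT replicates 3, 4 and 5 and Dp16 replicates 1, 4 and 6. That of Lyz2 depended on 7, all but WT replicates 4 and 5 and Dp16 replicates 1, 4 and 6 (highest edgeR adjusted p = 0.0719, without WT replicate 1).

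Wnt5a, Ubxn2b, Fgfr3, Smarcd3 and Grin2c depended on 8 libraries each, WT replicates 3 and 4 and Dp16 replicate 5 among them in every case. The call was kept only without WT replicates 2 and 6 and Dp16 replicates 2 and 6 for Wnt5a, and WT replicates 2 and 6 and Dp16 replicates 2 and 3 for Ubxn2b. It was kept only without WT replicates 2 and 5 and Dp16 replicates 4 and 6 for Fgfr3, and WT replicates 1, 2 and 6 and Dp16 replicate 3 for Smarcd3 and Grin2c. The highest edgeR adjusted p = 0.0970, 0.107, 0.0978, 0.0705 and 0.0974 in that order, without WT replicate 5 for Wnt5a and Ubxn2b, Dp16 replicate 5 for Fgfr3 and Grin2c, and WT replicate 3 for Smarcd3. Slc25a22 depended on 10 libraries, all but WT replicate 6 and Dp16 replicate 2, Pnrc1 on 10, all but Dp16 replicates 1 and 5, and Dyrk1b on 11, all but WT replicate 4, with the highest edgeR adjusted p = 0.102, 0.129 and 0.109. In all 14 the direction was the same without each library. Inside the segment 56 of the 62 calls held in all 27 settings, and those of Adamts1, Btg3, Cyyr1, Il10rb, Smim11 and Son did not. Smim11, a small membrane protein (0.45, edgeR adjusted p = 0.0167), was lost without WT replicate 3 or Dp16 replicate 5 (up to 0.0530). Over the 27 settings the calls of Adamts1, Smim11 and Son were lost in 5 each, that of Btg3 in 6, of Cyyr1 in 15 and of Il10rb in 1. For Smim11 and Son the adjusted p in some other settings was higher than without any single library.

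**Figure D4:**
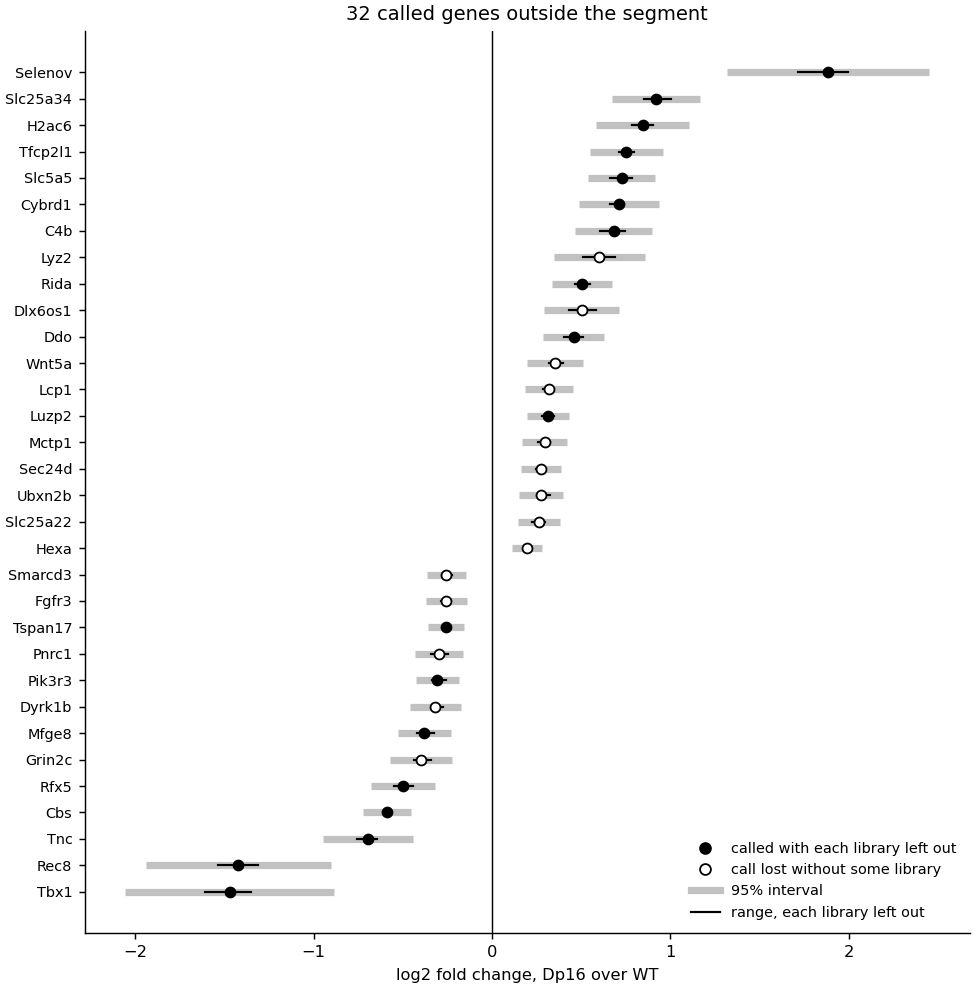
Log2 fold change of Dp16 over WT (x axis) for 32 genes with a full name called outside the segment other than a, with 95% intervals and the range over leaving out each library, and open points where the call was lost without some library. Selenov has the highest value at 1.88 and Tbx1 the lowest at -1.47, and most genes with open points lie within 0.5 of 0.

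Lists of pathways and cell types were set beside the same figures for all genes outside. Of 39 lists, 12 held a called gene and 27 held none, and of the 34 named genes 12 stood in a list and 22 in none. In the 27 lists without an edgeR call, limma-voom called 0 genes and DESeq2 at most 1, in 4 of them. Interferon-stimulated genes, which the duplicated receptors can induce, had 49 members tested, 47 of them positive, with a median log2 fold change of 0.23. By edgeR, 0 of the 49 were called, and 15 had an unadjusted p under 0.05, all higher, beside 5.15% of all genes outside. The largest evidence in single genes was for Dhx58, an RNA sensor (0.57, edgeR adjusted p = 0.304), Samd9l (0.38, edgeR adjusted p = 0.329) and Parp9 (0.36, edgeR adjusted p = 0.333). The mean level of the list was 1.54 to 2.23 log2 CPM in WT and 1.86 to 2.60 in Dp16, with 1 of the 6 Dp16 mice above the WT range. The median was 0.16 to 0.31 when each library was left out and 0.11 on the log2(RPKM + 1) scale.

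Genes of MHC and antigen presentation (24 tested) had a median of 0.23 with 21 positive, and the 1 called was Rfx5, which fell. H2-K1 and H2-D1, classical class I genes, had 0.30 and 0.27 (edgeR adjusted p = 0.405 and 0.472). Markers of leukocytes had a median of 0.71 over the 7 of 14 that could be tested, at a summed level of 4.88 to 6.55 CPM in WT and 4.38 to 9.36 CPM in Dp16, and of 0.07 on the log2(RPKM + 1) scale. Of these 0 were called by edgeR and 2 had an unadjusted edgeR p under 0.05, and Cd3e, Cd3g, Cd8a, Ms4a1, Nkg7 and Ly6c2 were among those with too few counts.

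Ribosomal protein genes of the cytosol lay on the other side: of 58 tested, 0 were positive and 0 called by edgeR, with a median of -0.14 and 8 at an unadjusted edgeR p under 0.05, beside 3.99% of all genes outside that were lower by that measure. Dp16 replicate 4 had the lowest mean level of this list, 6.78 log2 CPM, and without it the median was -0.08. Immediate early genes (20 tested), which neurons switch on when active, had a median of -0.11 with 4 positive (-0.03 without WT replicate 2 and -0.18 without WT replicate 4), with Arc at -0.45 (edgeR adjusted p = 0.472) and Egr1 at -0.32 (edgeR adjusted p = 0.508). Cholesterol synthesis genes (24 tested) had a median of 0.07 with 21 positive (0.14 without Dp16 replicate 3). Hmgcs1, an early enzyme of that pathway, stood at 233 to 279 CPM in WT and at 304 to 349 CPM in Dp16 with no overlap, and did not pass (0.29 ± 0.07, edgeR adjusted p = 0.106), and it was called by DESeq2, with no filter and on the 12 libraries alone.

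Markers of hippocampal neurons were near 0. The medians were -0.06 for dentate granule cells, 0.06 for CA1, -0.02 for CA2 and 0.01 for CA3 pyramidal cells (for CA1 0.01 without WT replicate 4 and 0.14 without WT replicate 6), with 0 called by edgeR in any and 3, 2, 1 and 1 at an unadjusted edgeR p under 0.05. Plk5, a dentate marker, stood at 16.4 to 24.7 CPM in WT and at 12.4 to 15.4 CPM in Dp16 with no overlap (-0.56 ± 0.14, edgeR adjusted p = 0.106), and it was called by DESeq2, with no filter and on the 12 libraries alone. Gabrd, the delta subunit of extrasynaptic GABA-A receptors, stood at 22.2 to 35.8 CPM and at 16.99 to 24.2 CPM (-0.46 ± 0.11, edgeR adjusted p = 0.0651), and it was called without WT replicate 2 (edgeR adjusted p = 0.0149) or WT replicate 6. The 14 GABA-A subunits had a median of 0.00 and the 31 synaptic vesicle genes of 0.04.

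Proliferation genes (17 tested) had a median of -0.10 with 4 positive (-0.03 without WT replicate 5), and the list level of 5 of the 6 Dp16 mice lay below the WT range. The 17 genes of adult neurogenesis also had a median of -0.10 (-0.02 without WT replicate 2), with Neurod1, a factor of immature granule cells, at -0.50 (edgeR adjusted p = 0.407). By edgeR 0 genes of either list were called, and 4 in each had an unadjusted p under 0.05. The median of the choroid plexus markers was -0.37, with 0 of 14 positive, and that of the thalamus markers -0.31. These values rest on the libraries that stood apart: the choroid median was -0.60 to -0.11 when each library was left out, and the thalamus median was -0.04 without WT replicate 4.

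**Figure D5:**
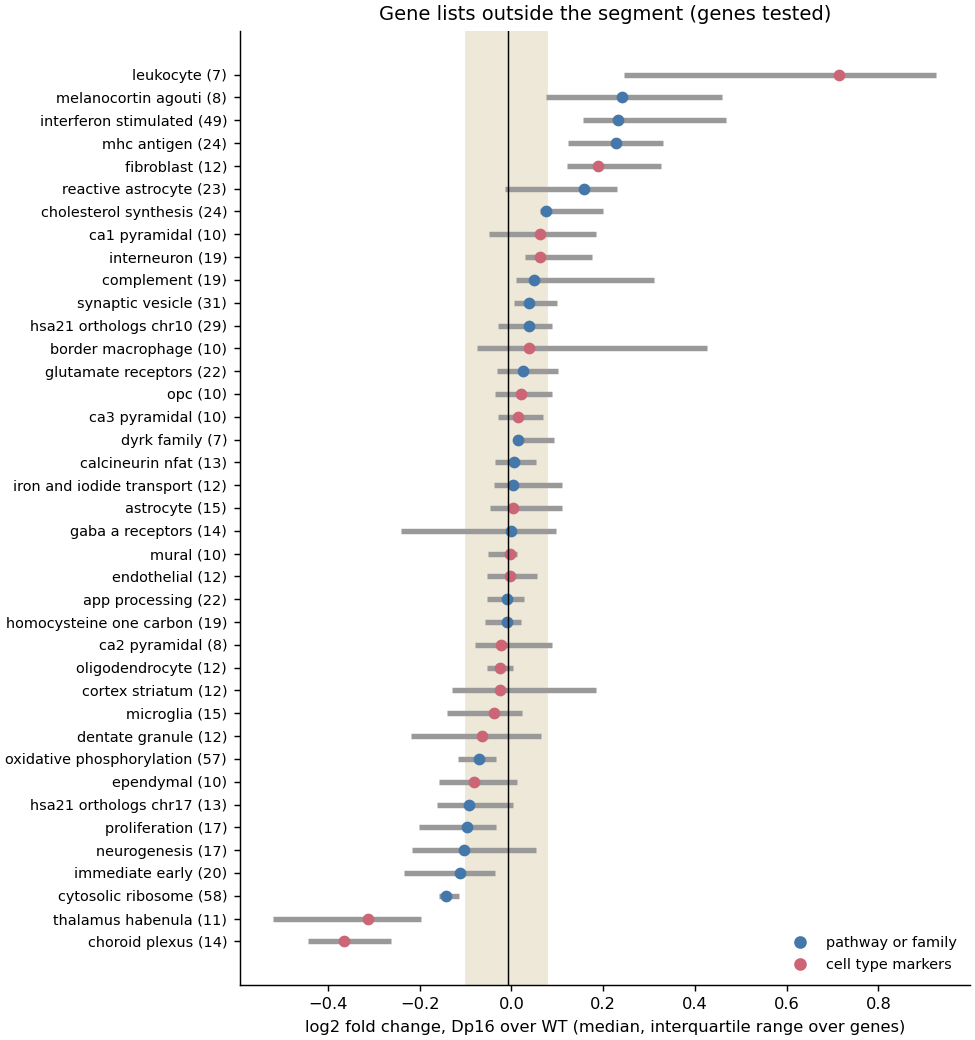
Median log2 fold change of Dp16 over WT (x axis) with the interquartile range for 39 lists of genes outside the segment (y axis), beside a line at the median of all genes outside, -0.01, and a band for their interquartile range, -0.10 to 0.08. The medians of leukocyte, melanocortin, interferon-stimulated, MHC, fibroblast and reactive astrocyte genes lie to the right of the band. Those of choroid plexus, thalamus, ribosomal, immediate early and neurogenesis genes lie to the left.

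The sexes were compared by testing whether the difference between Dp16 and WT differed between females and males. By edgeR 0 of 18983 genes were called (0.0%), as with DESeq2 and limma-voom, and 566 (2.98%) had an unadjusted p under 0.05. The segment median was 0.58 in females and 0.55 in males, and 5 of its 122 genes (4.1%) had an unadjusted p under 0.05 for the difference. The smallest was that of Coq6, an enzyme of coenzyme Q synthesis outside the segment, at 0.34 in females and -0.26 in males (edgeR adjusted p = 0.99994). It was followed by Tspan11 (0.74 and -1.51), Grid2ip (0.46 and -2.48), Sstr3 (-0.44 and 0.04) and Nptxr (-0.14 and 0.31). The value of Grid2ip rests on 2 male WT mice at 15.2 and 10.2 CPM. With 3 mice per sex and genotype, the smallest differences between the sexes that could be detected are larger than in the comparison over all 12 mice.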

How the data were processed

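RNA of 17 mouse hippocampus samples was measured, of which the 6 WT and 6 Dp16 libraries are compared here. Per the labels' protocols, RNA was extracted with TRIzol and polyadenylated RNA was read as paired 150 base reads from a strand-specific kit. The submitters' processing notes name HISAT2 2.1.0 with the build GRCm38, HTSeq 0.6.1, SAMtools 1.5, FastQC 0.11.5 and bcl2fastq. From these steps the authors deposited a table of raw counts and a table of RPKM, both named for GENCODE M24. Whether the counting used strand and which gene lengths lie behind RPKM is not given in the sources used here, so values of overlapping or antisense genes and of near-identical families are less certain.

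Counts were fitted in R 4.3.3 with edgeR 4.0.16 (quasi-likelihood test, TMM scaling, filterByExpr with a minimum count of 10, genotype and sex, all 17 libraries, 13 residual degrees of freedom). The biological coefficient of variation between mice was 14.1%. CPM were scaled by TMM, with a prior count of 2 on the log2 scale. Gene positions came from GENCODE M21 on the same build, and 241 of 55385 genes had none and counted as outside. The fit was tested on simulated data. It called 56.1% of the genes changed 1.5-fold and 76.8% of those changed 2-fold, and 3.68% of its calls were false. Promoter windows came from RefSeq (GRCm38.p6) and matched 78 of 100 expressed genes of the segment.

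The members and the 49 gene lists were chosen with earlier results of these data known, so no list was tested. Named genes outside the segment were every called gene with a full name, of which 1 is not reported here. Inside it, they were the receptors, the 3 most abundant of each role, and members not called or far from the segment median. From other lists they were the called members and up to 3 more with the smallest p, and for the test of sex the 5 with the smallest p. C4a, Dlx6, Aldh1l1, Aqp4, Slc1a2, Gm9843, Lca5l, Gm15966, Gm49678, Smim11, Tcf7l2 and Prkcd were added after their values were seen.

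Alternatives were DESeq2 1.42.0 (its test, or its size factors alone), TMM without the segment, limma-voom (limma 3.58.1), no filter or 1 CPM in 6 libraries, only the 12 libraries, no sex term, age, a replicate block, an adjusted p under 0.1, limma-trend on log2(RPKM + 0.1) and log2(RPKM + 1), the choroid plexus level as a covariate, and leaving out the libraries low in choroid plexus or each library in turn. No 2 libraries of a group agreed within counting error (chi-square per degree of freedom 8.05 to 52.1 over 30 pairs).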

Additional observations from a re-analysis of the deposited data

Results flagged for a closer look

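Single libraries lay far from the rest of their group in 25 of the 298 groups of 6 values examined: the gap from the highest or lowest library to its nearest neighbour took up most of the range of the group. Chance alone gives such a gap in about 1 in 20 groups. WT replicate 6 gave 7 of the 25, WT replicate 4 and Dp16 replicate 3 gave 4 each, Dp16 replicate 6 gave 3, Dp16 replicates 1, 2 and 4 gave 2 each and WT replicate 2 gave 1.

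High values among segment genes in Dp16 were those of replicate 3 for Son (515 CPM), Paxbp1 (72.0 CPM), Donson (24.4 CPM) and Erg (8.68 CPM), of replicate 1 for Btg3 (28.1 CPM) and of replicate 2 for Mx2 (2.42 CPM). Low values in Dp16 were those of replicate 4 for Sod1 (160.0 CPM), replicate 1 for Olig2 (33.8 CPM) and replicate 6 for Il10rb (8.47 CPM). In WT, replicate 4 was high for Pcp4 (226 CPM), Setd4 (6.64 CPM) and Eva1c (2.26 CPM), replicate 2 for Ifnar1 (48.3 CPM) and replicate 6 for Dyrk1a (92.5 CPM), while replicate 6 was low for Clic6 (2.37 CPM).

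Of the lists, the mean level of choroid plexus markers was low in WT replicate 6 (0.72 log2 CPM) and Dp16 replicate 6 (0.98 log2 CPM). WT replicate 6 also stood apart for complement (2.40 log2 CPM), synaptic vesicle genes (8.29 log2 CPM), iron and iodide transport (5.11 log2 CPM) and CA2 markers (4.85 log2 CPM). Genes of App processing stood apart in WT replicate 4 (6.72 log2 CPM) and Dp16 replicate 2 (6.83 log2 CPM), cytosolic ribosomal proteins in Dp16 replicate 4 (6.78 log2 CPM) and leukocyte markers in Dp16 replicate 6 (-1.59 log2 CPM).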

How the results depend on the processing

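In the segment 57 to 66 genes were called when each library was left out, and the median log2 fold change was 0.53 to 0.58, and 0.54 and 0.46 on log2(RPKM + 0.1) and log2(RPKM + 1). Counts outside moved more, and the cause was not tested. DESeq2 called 214 genes in all, 82 higher and 59 lower outside, all 40 edgeR calls among them, and with no filter 45 and 31 were called. Of the 40 calls outside, 29 were shared on the 12 libraries alone and 23 without the libraries low in choroid plexus. Without WT replicate 4 as well, 19 were shared. Leaving out single libraries kept 23 to 34. Lower calls numbered 25 and 26 on the RPKM scales, 23 with the choroid plexus covariate, and 8 without the libraries low in choroid plexus and WT replicate 4 (chosen after seeing the data). At an adjusted p under 0.1 there were 52 higher and 32 lower. Without single libraries, 81 to 112 genes were called in all, 14 (without WT replicate 3) to 35 higher and 9 (without WT replicate 5 or Dp16 replicate 2) to 16 lower outside. Of 6404 values of named genes, 197 lost and 76 gained a call, and 9 turned in sign, none of a called gene: B230307C23Rik to 0.0028 by limma-voom and 0.012 without the libraries that stood apart, A630089N07Rik to -0.010 without those libraries, and others when single libraries were left out, with ranges of -0.017 to 0.091 for Vtn, -0.33 to 0.022 for Foxj1, -0.030 to 0.48 for Clic6, -0.12 to 0.14 for B230307C23Rik and -0.020 to 0.19 for A630089N07Rik. The labels' replicate numbers were not taken to pair the mice, since the labels name no shared source. Of 6 same-number correlations of deviations, 1 was below 0.1 (-0.0667). The other 5 were 0.184 to 0.758, the mean was 0.303 against -0.0449 for other pairs, and 2 of 6 mice were closest to their own number. Mice of the same number also had the same sex, and the highest value was that of the libraries low in choroid plexus. These correlations therefore cannot decide whether mice were paired. With the replicate block 104 genes were called, 66 in the segment and 22 higher and 16 lower outside, and of the 40 calls outside 31 were shared. At 30.4 to 33.1 M counts per library, genes from 1 to 10 CPM in the segment had a median SE of 0.18, against 0.07 at 10 CPM or more.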
